A study of Homo sapiens with 6 samples.

Results

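The proteasome genes described here are those with a symbol of PSM, a letter from A to G and a number, and with a RefSeq messenger RNA entry in the deposited tables. For each gene the primary-chromosome entry with the most reads stood for it. The rule gave 46 of the 26852 genes with an entry, chosen by symbol and entry type, while reads decided only which entry stood for a gene. Of these, 44 code for subunits, activators, an inhibitor or assembly factors of the proteasome. The other members, PSMC3IP and PSME3IP1, match the naming pattern but code for no proteasome subunit. A further 4 subunit genes, PSMA3, PSMB3, PSMD1 and PSME3, had entries for noncoding transcripts only, so they are not members and their values are given apart. Reads were found for 45 members and 44 passed the authors' filter on low values. PSMA8, an alpha subunit of the testis, had 0 reads, and PSMB11, the catalytic subunit of the thymus, had at most 2 reads in a library.

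All libraries came from U2OS 2-6-3 cells, a human osteosarcoma line that carries a chromosomal array of tet operators, and all cells were under white light overnight. The sample group was transiently transfected with plasmids for 3 fusion proteins, mCherry-MCP, CIBN-TetR and PHR-YFP-VP16, parts of a system in which light recruits the VP16 activator to the array. The mock group was transiently transfected with TetR-RFP and YFP, with the same transfection reagent. The untransfected group received neither plasmids nor the reagent, so plasmids and reagent cannot be told apart in a comparison with it. Each group had 2 libraries, called a for the deeper and b for the shallower. Whether the libraries of a group came from separate cultures is not given in the labels, and the p-values then cover no more than the spread among these libraries, possibly a technical one.

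The proteasome is the protease that breaks down proteins tagged with ubiquitin. Its 20S core is a barrel of alpha rings, which gate the entry, and beta rings, which hold the catalytic sites of PSMB6, PSMB7 and PSMB5. The 19S regulatory particle caps the core: its lid removes ubiquitin, and its base binds substrates, unfolds them with ATPases and feeds them into the barrel. In immune cells, and in many other cells after interferon, PSMB9, PSMB10 and PSMB8 replace the constitutive catalytic subunits to form the immunoproteasome, which makes peptides suited to MHC class I. Transcription of the constitutive subunits is known to be driven by NRF1, the product of NFE2L1, through antioxidant response elements when proteasome activity is short.

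RefSeq promoter windows of build GRCh38.p14, from 250 bases before to 50 after a start site, were matched by symbol for 40 of the 46 members. The start site of a window need not be that of the entry counted, as for PSMG2. The interferon-stimulated response element, searched on both strands as TTTC, any 2 letters, and TTTC again, was found in 7 of the 40 members (17.5%) and in 4.38% of the 27305 genes with a window. The following stretches are shown because the immunoproteasome genes PSMB8 and PSMB10, the activator genes PSME1 and PSME2, and PSMG4, which codes for a core assembly chaperone, share the same letters at the match, on one strand or the other. The match is in capitals, and each sequence reads 5′ to 3′ on the strand of the gene.

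PSMB8, chr6:32844018-32844091, minus strand: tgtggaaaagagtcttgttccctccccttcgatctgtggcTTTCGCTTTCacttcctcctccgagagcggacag
PSMB10, chr16:67936822-67936911, minus strand: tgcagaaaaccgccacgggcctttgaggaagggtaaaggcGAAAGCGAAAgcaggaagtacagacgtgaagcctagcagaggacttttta
PSME1, chr14:24136159-24136223, plus strand: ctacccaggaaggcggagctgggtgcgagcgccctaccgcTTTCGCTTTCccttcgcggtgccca
PSME2, chr14:24146589-24146678, minus strand: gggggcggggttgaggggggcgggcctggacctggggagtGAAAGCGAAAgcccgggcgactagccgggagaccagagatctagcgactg
PSMG4, chr6:3258874-3258963, plus strand: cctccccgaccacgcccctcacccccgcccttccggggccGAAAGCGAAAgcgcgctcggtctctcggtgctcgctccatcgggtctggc

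The core of the antioxidant response element, searched as TGACNNNGC on both strands, was found in 13 of the 40 members (32.5%) and in 16.06% of genes with a window. The next stretches belong to lid and ATPase genes named below, again with the match in capitals. They are a selection, all from genes called higher in both transfected groups. The ATPase gene PSMC4 also had a match, as did PSMB9 and PSME1, which were called lower.

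PSMD12, chr17:67366714-67366762, minus strand: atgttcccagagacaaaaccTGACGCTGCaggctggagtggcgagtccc
PSMD3, chr17:39980750-39980798, plus strand: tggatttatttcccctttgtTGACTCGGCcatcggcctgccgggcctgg
PSMC5, chr17:63827644-63827692, plus strand: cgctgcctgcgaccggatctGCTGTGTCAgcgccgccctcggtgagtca

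The gamma-activated site, TTCNNNGAA, was found in 7 members (17.5%) and 9.38% of genes, and the CCAAT box, CCAAT on both strands, in 19 members (47.5%) and 39.72% of genes. A match describes the letters of the window and is not evidence of binding.

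Summed over transcript entries, sample libraries held 50105854 and 9579278 reads, mock libraries 54177551 and 44594507 reads, and untransfected libraries 53596406 and 51146190 reads. Sample library b was thus the shallowest, and its low counts carry the largest counting error. Of 8 osteoblast-lineage markers, IBSP had no reads and SP7 was at or near 0. The 9 markers of other cell types summed to 209 and 259 normalized counts in sample, 234 and 205 in mock, and 274 and 253 in untransfected libraries, with CD3E and HBA2 at 0. Within that sum CD68 stood at 72.5 and 140 normalized counts in sample, 72.7 and 107 in mock, and 13.7 and 20.8 in untransfected libraries, while EPCAM stood at 60.0 and 57.5 in sample, 84.7 and 46.3 in mock, and 192 and 175 in untransfected libraries. Single osteoblast-lineage markers also differed between groups in either direction. RUNX2 stood at 92.8 and 132 normalized counts in sample, 66.4 and 63.8 in mock, and 381 and 417 in untransfected libraries. ALPL had 538 and 653 normalized counts in sample, 760 and 866 in mock, and 57.5 and 68.9 in untransfected libraries. COL1A1 had 6084 and 14740 normalized counts in sample, 5549 and 5435 in mock, and 7872 and 8173 in untransfected libraries, so sample library b was the highest. The part of these differences in the results was not tested. Normalized counts are reads divided by a median-of-ratios size factor over the 6 libraries.

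Against untransfected cells, most proteasome genes were called higher in mock cells and fewer in sample cells. PSMB9 of the immunoproteasome and the activator subunit PSME1 fell in both. The sample comparison holds the shallow sample library b, so fewer calls there need not mean that fewer genes rose. PSMD2, a scaffold of the 19S particle, had the highest log2 fold change of the called members in both of the authors' deposited tables, at more than double its untransfected level. Of the 16 tested 19S subunits, 11 were called higher in sample and 15 in mock cells in the authors' deposited tables, against 4 and 8 of the 12 constitutive core subunits. In mock against untransfected cells the authors' deposited table called 32 of 44 tested members higher and 3 lower at a DESeq2 adjusted p under 0.05. Over all 17093 genes tested there, 27.5% were called higher and 23.3% lower. The members' median log2 fold change was 0.42 in the authors' deposited table, against -0.0039 for all genes tested. In sample against untransfected cells the authors' deposited table called 20 of 44 tested members higher and 2 lower, while 20.2% of 15567 genes were called higher and 17.1% lower. There the members' median log2 fold change was 0.33 in the authors' deposited table, against -0.0027 for all genes. These shares over all genes also stand beside the later counts by role and by motif. Both sample libraries were above both untransfected ones in 29 members, a pattern found in 35.7% of genes tested there, and below them in 6 members, against 38.1% of genes. Both mock libraries were above both untransfected ones in 35 members, against 38.3% of genes, and below them in 5 members, against 41.3% of genes. Both comparisons use the same untransfected libraries, so they are not independent of each other. In bulk RNA, a change in RNA per cell and a change in the share of cells of a kind cannot be told apart.

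The number called depends on the fit and the scaling, and the size of the change on the libraries. With limma-voom on the recovered counts 31 members were higher and 4 lower (adjusted p under 0.05), where 29.7% of all genes were higher and 29.2% lower. In sample cells limma-voom called 23 members higher and 4 lower, where 25.6% of all genes were higher and 25.0% lower. In mock cells, scaling by total counts shifted the median of all genes by -0.13 on the log2 scale. It left 22 members higher and 5 lower, at a member median of 0.27. The share of all genes called under that scaling was not counted. Without untransfected library a, the member median log2 fold change in mock cells was 0.36 in limma-voom, against 0.0055 for all genes.

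**Figure D1:**
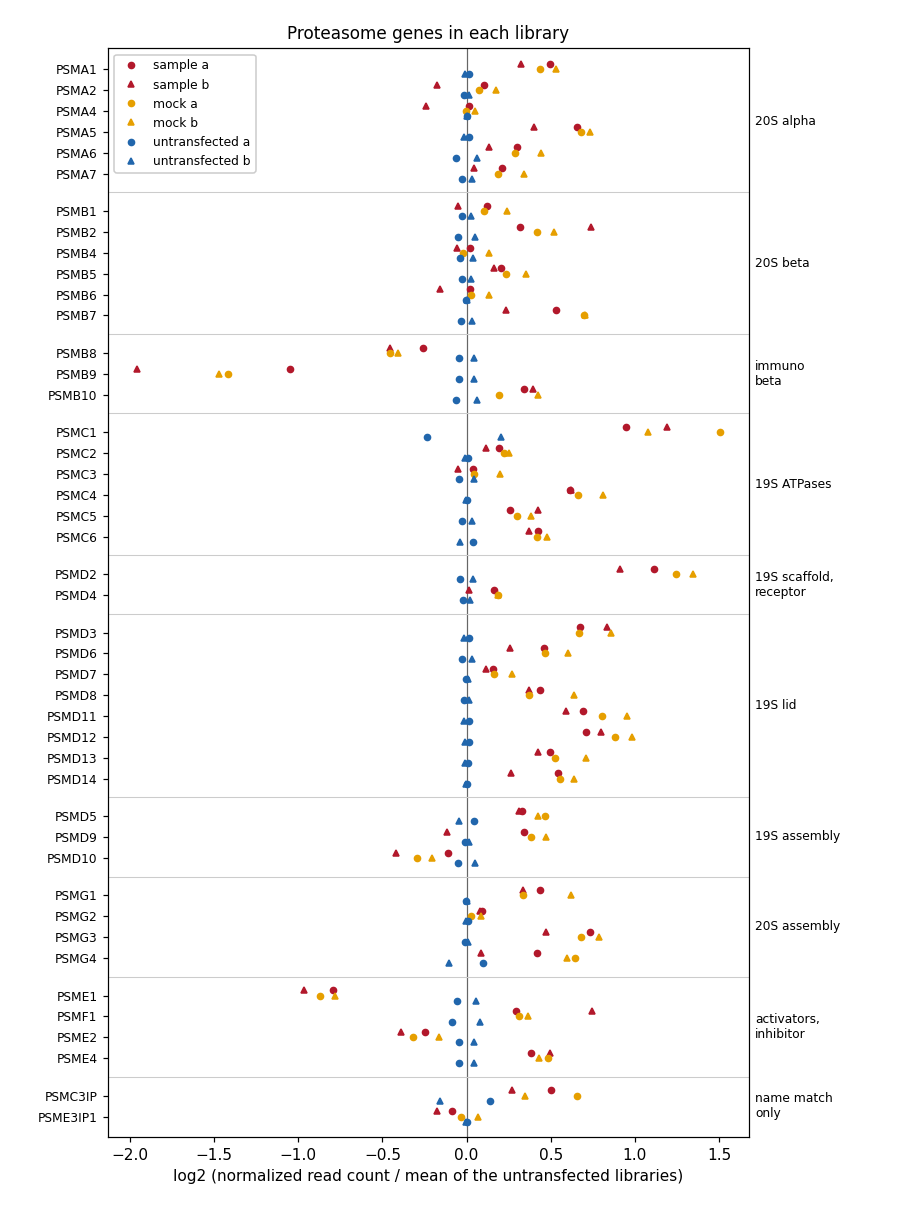
Normalized read count of each tested member in every library, as the log2 ratio to the mean of the untransfected libraries (horizontal axis), for members grouped by role (vertical axis). Circles are library a and triangles library b of each group. The sample and mock points lie right of the untransfected ones for all 8 lid genes, and left of them for PSMB8, PSMB9, PSME1, PSME2 and PSMD10.

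All 8 lid subunits were called higher in mock cells and 7 of 8 in sample cells, in the authors' deposited tables. Their median log2 fold changes were 0.45 in sample and 0.64 in mock cells in the authors' deposited tables. PSMD3, a structural lid subunit and the lid gene with the most reads, had 10823 and 12122 normalized counts in sample libraries, 10814 and 12323 in mock libraries, and 6865 and 6724 in untransfected libraries. All transfected libraries were above both untransfected ones. In the authors' deposited tables PSMD3 had log2 fold changes of 0.76 (SE 0.10, DESeq2 adjusted p = 3.51e-12) in sample and 0.80 (SE 0.08, adjusted p = 4.63e-24) in mock cells. PSMD12, another structural lid subunit, had 2512 and 2671 normalized counts in sample libraries, 2828 and 3035 in mock libraries, and 1551 and 1526 in untransfected libraries. The groups did not overlap, and the mock libraries were the highest. In the authors' deposited tables PSMD12 had log2 fold changes of 0.75 (SE 0.12, DESeq2 adjusted p = 1.78e-09) in sample and 0.96 (SE 0.08, adjusted p = 3.80e-29) in mock cells. PSMD11 had 0.65 and PSMD14, the deubiquitinase of the lid, 0.42 in sample cells, against 0.91 and 0.62 in mock cells, as log2 fold changes in the authors' deposited tables. PSMD7, the partner of PSMD14, moved least, with 0.15 (DESeq2 adjusted p = 0.283) in sample and 0.25 (adjusted p = 0.0027) in mock cells in the authors' deposited tables. Its call in mock cells was lost with limma-voom under scaling by total counts or upper quartile, and without mock library b (0.16), untransfected library a (0.21) or untransfected library b (0.22). PSMD14 in sample cells kept its call in limma-voom without sample library a, at 0.26.

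The base scaffold PSMD2, which docks shuttle proteins carrying ubiquitinated substrates, had the highest log2 fold change among called members in both of the authors' deposited tables. PSMD2 had 28264 and 24556 normalized counts in sample libraries, 30876 and 33104 in mock libraries, and 12680 and 13426 in untransfected libraries. No transfected library came near the untransfected level, and both sample libraries lay below both mock libraries. The ratio of group means was 2.02 in sample and 2.45 in mock cells, where PSMC1, with few reads, had 2.47. The authors' deposited tables gave log2 fold changes of 1.02 (SE 0.11, DESeq2 adjusted p = 5.25e-19) in sample and 1.32 (SE 0.07, adjusted p = 4.15e-83) in mock cells. PSMD4, a ubiquitin receptor of the base, had log2 fold changes of 0.11 (DESeq2 adjusted p = 0.488) in sample and 0.22 (adjusted p = 0.0060) in mock cells in the authors' deposited tables. The mock call was lost with limma-voom under scaling by total counts or upper quartile, and without any one of the mock or untransfected libraries (0.17 to 0.21).

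Of the 6 ATPases that unfold substrates, 3 were called higher in sample and 5 in mock cells, and none lower, in the authors' deposited tables. PSMC4 had the largest change among the well-covered ones, with log2 fold changes of 0.62 (SE 0.10) in sample and 0.76 (SE 0.08) in mock cells in the authors' deposited tables. PSMC5, the called member nearest to 0 among those higher in sample cells, had 2265 and 2552 normalized counts in sample libraries, 2338 and 2477 in mock libraries, and 1860 and 1937 in untransfected libraries. The transfected libraries overlapped each other and lay above the untransfected ones. The authors' deposited tables gave it 0.34 (SE 0.12, DESeq2 adjusted p = 0.0169) in sample and 0.37 (SE 0.08, adjusted p = 2.85e-05) in mock cells on the log2 scale. In limma-voom the sample call was lost under scaling by total counts (0.19), where the mock value was 0.22, and both calls were lost without untransfected library a, at 0.28 in sample and 0.31 in mock cells. PSMC3, the ATPase gene with the most reads, had 8117 and 7639 normalized counts in sample libraries, 8149 and 9093 in mock libraries, and 7671 and 8164 in untransfected libraries. The sample libraries lay below the mock libraries, and each group overlapped the untransfected one. PSMC3 was called in neither of the authors' deposited tables, at 0.0066 in sample and 0.15 in mock cells on the log2 scale. PSMC1 was counted at 31.2 and 37.0 normalized counts in sample libraries, 45.9 and 34.2 in mock libraries, and 13.7 and 18.7 in untransfected libraries. Per kilobase of transcript it averaged 7.66 normalized counts in sample, 9.01 in mock and 3.64 in untransfected cells, the lowest level of the tested members with a known length. The RefSeq table lists 13 pseudogenes of PSMC1, which could take its reads. Its log2 fold change of 1.09 (SE 0.42, DESeq2 adjusted p = 0.0193) in mock cells in the authors' deposited table is uncertain. In sample cells the authors' deposited table did not call it, at 0.70 (DESeq2 adjusted p = 0.254), while limma-voom did, at 1.03 (adjusted p = 0.0341). In mock cells it lost its call in limma-voom without mock library a (1.09) or untransfected library a (1.10).

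**Figure D2:**
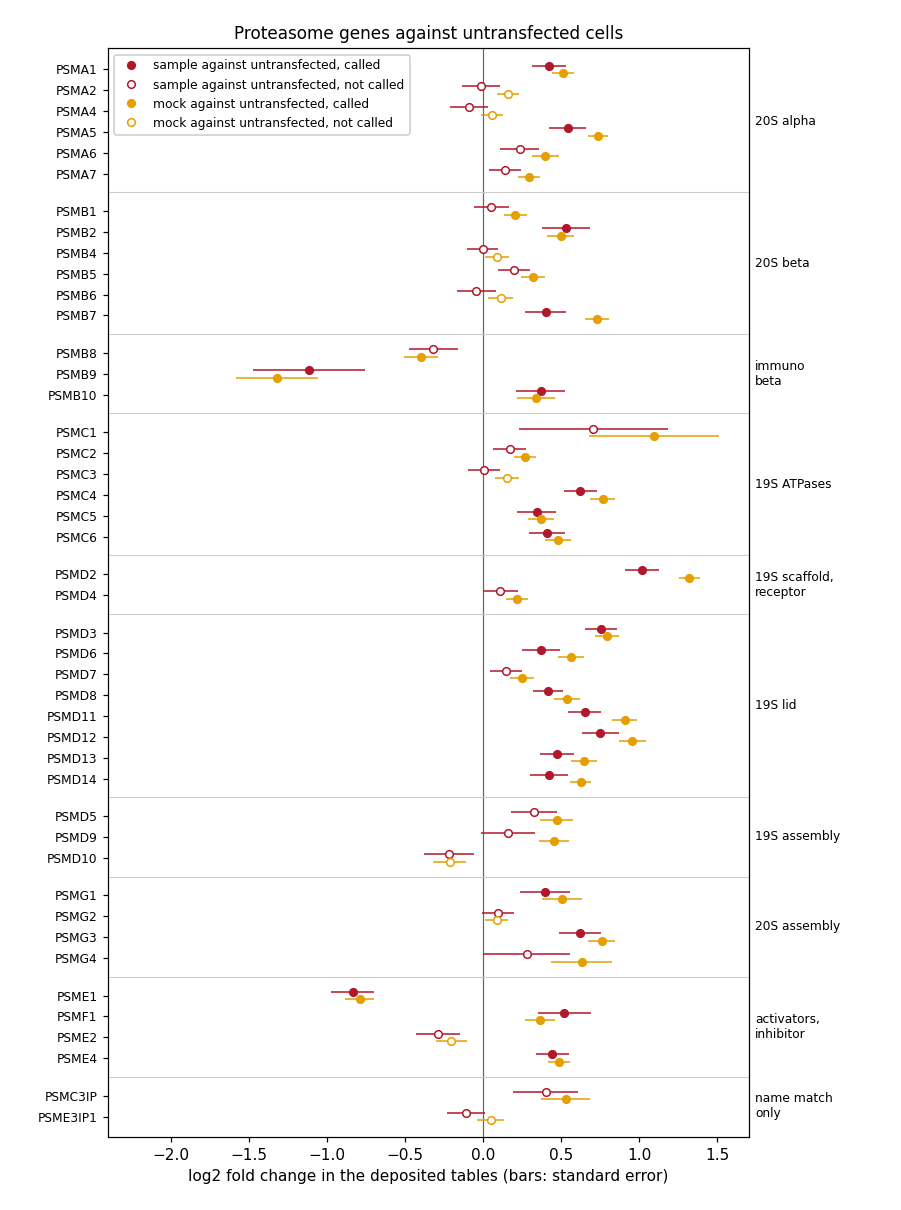
Log2 fold changes of the tested members in the authors' deposited tables (horizontal axis) for sample and mock cells, each against untransfected cells, with members grouped by role (vertical axis). Filled points were called at an adjusted p under 0.05, open points were not, and bars are the standard errors of the deposited tables. PSMD2 lies farthest right among well-covered genes and PSMB9 and PSME1 farthest left.

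In the 20S core no constitutive member was called lower, and the median log2 fold changes were 0.17 in sample and 0.31 in mock cells in the authors' deposited tables. In the alpha ring, PSMA5 had the largest log2 fold changes, 0.54 (SE 0.12) in sample and 0.74 (SE 0.07) in mock cells in the authors' deposited tables. PSMA7, the core gene with the most reads, had 17521 and 15644 normalized counts in sample libraries, 17261 and 19194 in mock libraries, and 14855 and 15485 in untransfected libraries. The untransfected libraries were the lowest, by a small margin. For PSMA7 the authors' deposited tables gave log2 fold changes of 0.14 (SE 0.10, DESeq2 adjusted p = 0.304) in sample and 0.30 (SE 0.07, adjusted p = 0.000118) in mock cells. The mock call was lost in limma-voom under scaling by total counts or upper quartile, and without mock library b (0.19), untransfected library a (0.23) or untransfected library b (0.29). PSMB4, a noncatalytic beta subunit, had 6624 and 6262 normalized counts in sample libraries, 6415 and 7147 in mock libraries, and 6357 and 6691 in untransfected libraries, with all groups overlapping. It was called in neither of the authors' deposited tables, at -0.0038 in sample and 0.09 in mock cells on the log2 scale.

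The balance between the particles differed between transfected and untransfected libraries. Reads of the 16 genes of the 19S particle per 100 reads of the 13 constitutive genes of the 20S core were 141 and 148 in sample libraries, 146 and 148 in mock libraries, and 113 and 112 in untransfected libraries. PSMD2 made up 27.8% and 25.7% of the 19S reads in sample libraries, 29.4% and 28.8% in mock libraries, and 18.7% and 19.4% in untransfected libraries. Without PSMD2 the ratio was 102 and 110 in sample libraries, 103 and 105 in mock libraries, and 92.0 and 90.3 in untransfected libraries. The transfected libraries were thus above the untransfected ones with and without PSMD2, though the gap was smaller without it. With 2 libraries a group, an exact permutation test cannot give a two-sided p below 0.333, so no test was made. The ratio uses counts within a library and does not depend on the scaling between libraries.

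**Figure D3:**
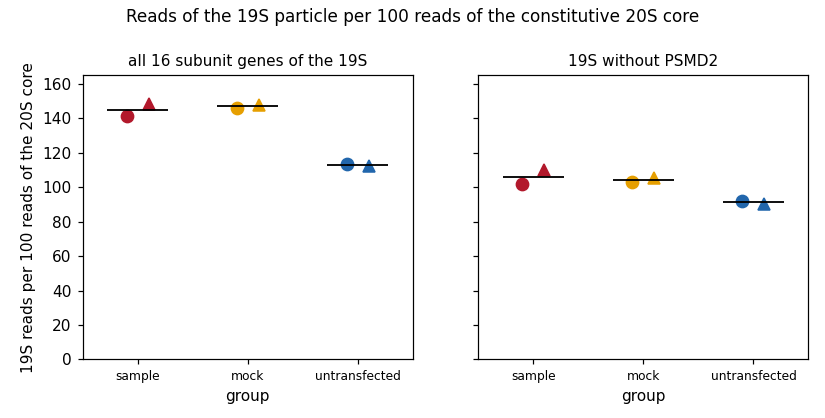
Reads of the 19S genes per 100 reads of the constitutive 20S genes (vertical axis) in each library of the 3 groups (horizontal axis), with PSMD2 on the left and without it on the right. Circles are library a, triangles library b, and lines are group means. The sample and mock libraries sit above the untransfected ones in both panels, by more in the left one.

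The immunoproteasome subunits differed among themselves. PSMB9 and PSMB8 were lower in transfected cells, whereas PSMB10 was slightly higher. PSMB9 had 69.4 and 37.0 normalized counts in sample libraries, 53.6 and 51.8 in mock libraries, and 139 and 148 in untransfected libraries. These values rest on 89 and 9 reads in sample, 76 and 56 in mock, and 213 and 206 in untransfected libraries. All transfected libraries were below both untransfected ones. PSMB9 fell with log2 fold changes of -1.11 (SE 0.36, DESeq2 adjusted p = 0.0072) in sample and -1.32 (SE 0.26, adjusted p = 1.97e-06) in mock cells in the authors' deposited tables. The ratio of group means was 0.37 in both sample and mock cells, so the means fell alike. In limma-voom without sample library a the log2 fold change in sample cells was -1.88. PSMB8 had the highest mean of the 3 over the groups, but fewer reads than PSMB10 in every transfected library. It had 804 and 703 normalized counts in sample libraries, 703 and 726 in mock libraries, and 933 and 993 in untransfected libraries. Its groups of transfected libraries overlapped each other and not the untransfected ones. PSMB8 fell in mock cells, with a log2 fold change of -0.39 (SE 0.11, DESeq2 adjusted p = 0.000784) in the authors' deposited table. In sample cells its log2 fold change was -0.32 (SE 0.16) with a DESeq2 adjusted p of 0.0979 in the authors' deposited table, whereas limma-voom called it lower (-0.31, adjusted p = 0.0272). PSMB10 had 830 and 863 normalized counts in sample libraries, 750 and 881 in mock libraries, and 628 and 684 in untransfected libraries, with the untransfected ones lowest. The log2 fold changes of PSMB10, 0.37 (SE 0.16, DESeq2 adjusted p = 0.0493) in sample and 0.34 (SE 0.12, adjusted p = 0.0126) in mock cells in the authors' deposited tables, were near the threshold. Under scaling by total counts or upper quartile, limma-voom called PSMB10 in neither comparison. Its calls were also lost without untransfected library a, at 0.30 in sample and 0.24 in mock cells, without untransfected library b, at 0.42 in sample and 0.37 in mock cells, without sample library a, at 0.40 in sample cells, and without mock library b, at 0.20 in mock cells.

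Of the constitutive catalytic subunits that these genes replace, PSMB7 was called higher in both transfected groups, PSMB5 in mock cells only, and PSMB6 in neither. PSMB6, the constitutive partner of PSMB9 with caspase-like activity, had 2385 and 2104 normalized counts in sample libraries, 2388 and 2578 in mock libraries, and 2340 and 2357 in untransfected libraries. The authors' deposited tables placed it at -0.04 in sample and 0.11 in mock cells on the log2 scale. PSMB5, the partner of PSMB8 with chymotrypsin-like activity, had 4245 and 4121 normalized counts in sample libraries, 4316 and 4687 in mock libraries, and 3614 and 3742 in untransfected libraries. PSMB5 had log2 fold changes of 0.20 (SE 0.10, DESeq2 adjusted p = 0.128) in sample and 0.32 (SE 0.08, adjusted p = 8.20e-05) in mock cells in the authors' deposited tables. The mock call was lost in limma-voom under scaling by total counts and without untransfected library a (0.26), and its value was 0.21 under upper-quartile scaling. PSMB7, the partner of PSMB10 with trypsin-like activity, had 3914 and 3189 normalized counts in sample libraries, 4394 and 4428 in mock libraries, and 2650 and 2780 in untransfected libraries. PSMB7 rose most of the 3, with log2 fold changes of 0.40 (SE 0.13, DESeq2 adjusted p = 0.0092) in sample and 0.73 (SE 0.07, adjusted p = 9.84e-22) in mock cells in the authors' deposited tables. Without sample library a the sample call of PSMB7 was lost in limma-voom (0.23). It overlaps the annotated gene LOC100129034, so some of its reads could be shared.

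Within each library the ratio of an immunoproteasome subunit to its constitutive partner shows the shift without scaling between libraries. PSMB9 reads per 100 PSMB6 reads were 2.91 and 1.76 in sample libraries, 2.25 and 2.01 in mock libraries, and 5.95 and 6.27 in untransfected libraries. PSMB8 reads per 100 PSMB5 reads were 18.9 and 17.0 in sample libraries, 16.3 and 15.5 in mock libraries, and 25.8 and 26.5 in untransfected libraries. For both pairs every transfected library was below every untransfected one. PSMB10 reads per 100 PSMB7 reads were 21.2 and 27.1 in sample libraries, 17.1 and 19.9 in mock libraries, and 23.7 and 24.6 in untransfected libraries, so that only the mock libraries were apart from the untransfected ones.

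The difference of the deposited log2 fold changes, immunoproteasome minus constitutive subunit, was computed with its 95% normal interval, taking the standard errors of the genes as independent. For PSMB9 and PSMB6 it was -1.07 (-1.82 to -0.32) in sample and -1.43 (-1.97 to -0.89) in mock cells, from the authors' deposited tables. These intervals are centred on deposited values, which for PSMB9 lie nearer 0 than the log2 ratios of group means. Those ratios were -1.43 in sample and -1.44 in mock cells. The 2 intervals therefore do not show that sample and mock cells differed. For PSMB8 and PSMB5 the difference was -0.52 (-0.89 to -0.15) in sample and -0.72 (-0.98 to -0.46) in mock cells. The PSMB10 and PSMB7 difference was -0.03 (-0.43 to 0.37) in sample cells, an interval that includes 0, and -0.39 (-0.67 to -0.11) in mock cells. In sample cells that difference was 0.17 in limma-voom without sample library a and -0.19 without sample library b. Per kilobase of transcript, PSMB8 led the 3 immunoproteasome genes at 857 normalized counts in untransfected cells, while PSMB10 led at 695 in sample and 669 in mock cells. The medians of the 11 constitutive core genes with a length were 3624 normalized counts per kilobase in sample, 4030 in mock and 2949 in untransfected cells.

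**Figure D4:**
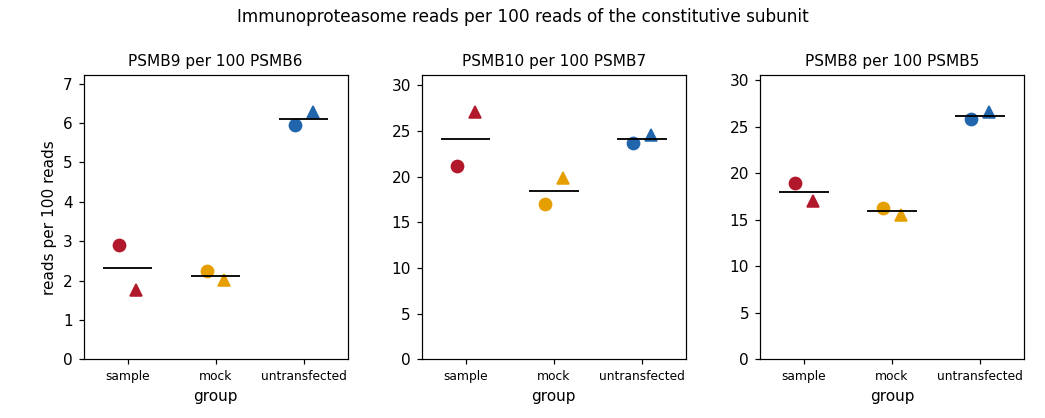
Reads of each immunoproteasome subunit per 100 reads of the constitutive catalytic subunit that it replaces (vertical axis, a separate scale in each panel starting at 0) in each library of the 3 groups (horizontal axis). Circles are library a, triangles library b, and lines are group means. PSMB9 and PSMB8 are lower in all transfected libraries. PSMB10 is lower in both mock libraries, while the sample libraries lie on either side of the untransfected ones.

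Among activators and the inhibitor, PSME1 went against PSME4 and PSMF1. PSME1 codes for the alpha subunit of PA28, an interferon-inducible cap of the core. It had 1186 and 1052 normalized counts in sample libraries, 1123 and 1192 in mock libraries, and 1968 and 2136 in untransfected libraries, with the transfected libraries far below. PSME1 fell with log2 fold changes of -0.83 (SE 0.14, DESeq2 adjusted p = 1.17e-08) in sample and -0.79 (SE 0.09, adjusted p = 1.74e-16) in mock cells in the authors' deposited tables. PSME2, the beta subunit of PA28, had 1149 and 1044 normalized counts in sample libraries, 1098 and 1220 in mock libraries, and 1324 and 1409 in untransfected libraries. It was below the untransfected libraries throughout, but was called in neither of the authors' deposited tables, at -0.29 (DESeq2 adjusted p = 0.0899) in sample and -0.20 (adjusted p = 0.0744) in mock cells. In limma-voom PSME2 was called lower in both, at -0.29 (adjusted p = 0.0337) in sample and -0.24 (adjusted p = 0.0369) in mock cells. PSME4, the large nuclear activator PA200, had 6587 and 7129 normalized counts in sample libraries, 7073 and 6828 in mock libraries, and 4896 and 5228 in untransfected libraries. PSME4 rose by 0.44 (SE 0.10) in sample and 0.49 (SE 0.07) in mock cells in log2 units of the authors' deposited tables. The inhibitor gene PSMF1 rose by 0.52 (SE 0.17) in sample and 0.37 (SE 0.10) in mock cells in the authors' deposited tables, with calls lost in limma-voom under scaling by total counts. Its mock call was also lost without any one of the mock or untransfected libraries (0.26 to 0.42), and its sample call without untransfected library a (0.36). Without sample library b the sample value was 0.30, still called. PSME3, the nuclear PA28 gamma and no member by the rule, stood at 2329 and 3476 normalized counts in sample libraries, 2516 and 2713 in mock libraries, and 1120 and 1104 in untransfected libraries on its noncoding entry. That entry had log2 fold changes of 1.34 (SE 0.18) in sample and 1.26 (SE 0.09) in mock cells in the authors' deposited tables. The noncoding entries of PSMA3, PSMB3 and PSMD1 had 0.33, 0.17 and 0.21 in sample cells, against 0.49, 0.29 and 0.36 in mock cells, all on the log2 scale and from the authors' deposited tables. All of these were called except PSMB3 and PSMD1 in sample cells.

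Assembly factors rose in part. Of the 4 chaperones that build the core, 2 were called higher in sample and 3 in mock cells in the authors' deposited tables. PSMG3 had the largest log2 fold changes among them, 0.62 (SE 0.14) in sample and 0.76 (SE 0.09) in mock cells in the authors' deposited tables. PSMG2, the core chaperone gene with the most reads, had 4055 and 4023 normalized counts in sample libraries, 3872 and 4043 in mock libraries, and 3825 and 3795 in untransfected libraries. PSMG2 was called in neither of the authors' deposited tables, at 0.10 in sample and 0.09 in mock cells on the log2 scale. Of the 3 chaperones of the 19S base, 0 were called in sample cells and 2 were called higher in mock cells in the authors' deposited tables. PSMD9 had 1245 and 908 normalized counts in sample libraries, 1279 and 1361 in mock libraries, and 975 and 991 in untransfected libraries, so sample library b was below both untransfected ones. It stood at 0.16 (DESeq2 adjusted p = 0.516) in sample and 0.45 (adjusted p = 1.31e-05) in mock cells on the log2 scale in the authors' deposited tables. The mock call was lost in limma-voom without mock library b (0.38) or untransfected library a (0.41). PSMD10, also known as the oncoprotein gankyrin, was called in neither of the authors' deposited tables, with log2 fold changes of -0.22 in sample and -0.21 in mock cells. Of the name matches, PSMC3IP, a meiotic recombination factor, was called higher in mock cells (0.53, DESeq2 adjusted p = 0.0018) in the authors' deposited table, and it overlaps MLX on the other strand. That call was lost in limma-voom without mock library a (0.35) or untransfected library b (0.37). PSME3IP1 had 1639 and 1541 normalized counts in sample libraries, 1698 and 1823 in mock libraries, and 1743 and 1734 in untransfected libraries, and was called in neither of the authors' deposited tables.

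Against mock cells, sample cells had no called member: 0 of 44 tested passed in the authors' deposited table, where 0.0785% of 15287 genes were called either way. At an unadjusted DESeq2 p under 0.05 there were 2 members in the authors' deposited table, against 1.96% of all genes tested. With limma-voom 0 members passed after adjustment, against 0.0134% of all genes, and 4 members had an unadjusted p under 0.05, against 4.34% of all genes. The log2 fold changes leaned to lower in sample cells, since 37 of 44 members were below 0 in the authors' deposited table, against 52.2% of all genes. In 19 members both sample libraries were below both mock libraries, a pattern found in 18.9% of all genes tested, and in 0 members both were above, against 15.3% of genes. Among those 19 were PSMB7, at -0.28 (SE 0.09) in limma-voom, and PSMD2, at -0.28 (SE 0.08). The deposited estimates for these genes, -0.23 for PSMB7 and -0.22 for PSMD2 in the authors' deposited table, are nearer 0. Without sample library a, the shallow library b alone stood for the group. The limma-voom log2 fold changes were then -0.47 for PSMB7, -0.38 for PSMD2 and -0.53 for PSMD9. These genes were picked by their result in that fit, and the share of all genes called there was not counted. The lone library is assumed to vary like the other groups, so only the sizes are given. Not passing the test does not show that the transfected groups were alike.

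Of the 13 members with the antioxidant response element core, 8 were called higher and 2 lower in mock cells in the authors' deposited table. Of the 25 tested members with a window but no such match, 19 were called higher and 1 lower there. PSMD2 had no match in its window, and PSMB9 and PSME1, which fell, had one. Of the 7 members with the interferon-stimulated response element, PSMB8 and PSME1 were called lower, PSMB10 and PSMG4 higher, and PSMA4, PSMB4 and PSME2 were not called in mock cells in the authors' deposited table. Of the 31 tested members with a window but no such match, 25 were called higher and 1 lower there. The median log2 fold change in mock cells was 0.06 with the match and 0.49 without it, and in sample cells -0.09 with the match and 0.40 without it, in the authors' deposited tables. This difference was not tested. PSMB9 had no match to that element in its window.

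Other genes of the pathway are given next, in lists grouped by function that were chosen with earlier results of these data known. Over all genes tested, 20.2% were called higher and 17.1% lower in sample cells in the authors' deposited table. In mock cells these shares were 27.5% and 23.3%. Among 4 subunits and assembly factors with other names, 2 were called higher and 0 lower in each transfected group in the authors' deposited tables. ADRM1, a ubiquitin receptor that docks on PSMD1 in the base, had 9443 and 10655 normalized counts in sample libraries, 10010 and 11237 in mock libraries, and 4851 and 5052 in untransfected libraries. ADRM1 had log2 fold changes of 1.02 (SE 0.11) in sample and 1.13 (SE 0.08) in mock cells in the authors' deposited tables. POMP, which matures the core, had 0.50 (SE 0.12) in sample and 0.71 (SE 0.09) in mock cells in the authors' deposited tables, while SEM1 was called in neither. Of 13 proteasome-associated enzymes and factors, 10 were called higher and 0 lower in each comparison in the authors' deposited tables. UCHL5, the deubiquitinase that ADRM1 recruits, had 431 and 464 normalized counts in sample libraries, 474 and 474 in mock libraries, and 216 and 230 in untransfected libraries. For p97, the segregase that extracts substrates, and its cofactors, 3 of 8 were called higher in sample and 5 of 8 in mock cells, with log2 fold changes of 0.24 in sample and 0.34 in mock cells for VCP itself in the authors' deposited tables.

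The list of the NRF1 axis mixes factors that bind antioxidant response elements with proteins that act on NRF1, such as DDI2. Its genes differ in role, so its count is not a count of activators. In this list 7 of 9 tested genes were called higher and 0 lower in each comparison in the authors' deposited tables. Over all genes, 20.2% were called higher in sample and 27.5% in mock cells there. MAFF, a small partner protein of NRF1 and NRF2, had 3457 and 2967 normalized counts in sample libraries, 3620 and 4042 in mock libraries, and 376 and 386 in untransfected libraries. MAFF rose by 3.04 (SE 0.14) in sample and 3.33 (SE 0.10) in mock cells in log2 units of the authors' deposited tables. DDI2, the protease that activates NRF1, had 1001 and 1089 normalized counts in sample libraries, 1055 and 1095 in mock libraries, and 535 and 564 in untransfected libraries. NFE2L1 itself, named after its values were seen, had log2 fold changes of 0.35 (SE 0.10) in sample and 0.43 (SE 0.07) in mock cells in the authors' deposited tables. Of the antigen-processing partners of the immunoproteasome, TAP2, a peptide transporter subunit, had 5076 and 4569 normalized counts in sample libraries, 5385 and 5281 in mock libraries, and 1991 and 1845 in untransfected libraries. Its partner TAP1 went the other way in mock cells, with a log2 fold change of -0.33 (SE 0.10, DESeq2 adjusted p = 0.0033) in the authors' deposited table. Of 18 subunits of the COP9 signalosome and eIF3, complexes related to the lid in structure, 9 were called higher in sample and 13 in mock cells. None were called lower in the authors' deposited tables, and the shares over all genes are those given above.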

How the data were processed

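RNA was measured by sequencing in 6 libraries of U2OS 2-6-3 cells, 2 per group. Directional libraries were made with a commercial kit, per the labels' protocols; the sources used here do not say whether counting used the strand. The submitters' processing notes name Bowtie, STAR, DESeq2 and hg38. The authors deposited 3 DESeq2 tables of 4 libraries each. Per the file headers these hold a mean signal of normalized counts, a log2 fold change with its standard error, a Wald score, and a p-value with its adjusted value. The members' median deposited log2 fold change was -0.08 between sample and mock cells, against -0.12 from ratios of group means, and 0.42 between mock and untransfected cells, against 0.40. For PSMC1, with few reads, the deposited values were nearer 0. They were 0.70 against 1.07 in sample and 1.09 against 1.31 in mock cells. PSMB9 had the same pattern, so a smaller deposited value in sample than in mock cells need not be a smaller change.

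The counts of the 6 libraries were solved from the 3 deposited mean signals by lattice reduction: of 40029 entries, all 30527 with reads were solved, at a relative tolerance of 1e-14, and 29926 of 29926 simulated entries were recovered. The replicate number behind a library is unknown. Symbols were found for 39720 entries (99.2%) by accession in RefSeq and GENCODE tables. Isoforms of a gene can share reads, and pseudogenes or overlapping genes can take them. Because the tables hold no raw counts, edgeR, planned for that case, was not run. limma-voom (limma 3.58.1, R 4.3.3) with Benjamini-Hochberg adjustment was run on genes with a mean of at least 10. On simulated data with a dispersion of 0.01 for every gene it recovered 97%, 97% and 95% of genes raised 2-fold. Of genes lowered by the same factor it recovered 94%, 89% and 94%. The order is mock against untransfected, sample against untransfected and sample against mock cells. Most members changed by less than 2-fold, so the simulation does not give the power for them. It does not bear on the lack of calls between sample and mock cells. The 95% intervals use the deposited standard errors, so they cover the spread among these libraries. Python 3.11.15, numpy 2.4.6, pandas 2.3.3 and matplotlib 3.10.9 were used.

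The members and gene lists were chosen with earlier results of these data known. Named in every library were the catalytic pairs, the 3 called members highest and lowest per comparison, and the member with the most reads per role; of pathway lists, up to 4 called and 2 uncalled genes could be named. Some genes of these lists are not reported here, and no counts are given for the lists that hold them.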

Additional observations from a re-analysis of the deposited data

How the results depend on the processing

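No paired analysis was possible because the solved libraries carry no replicate number. In mock cells, 35 members were called in the authors' deposited table and 19 when a log2 size of at least 0.5 was also asked. In sample cells these numbers were 22 and 11 (against untransfected cells). The share of all genes that passed this size limit was not counted. Leaving out each library in limma-voom gave 17 to 29 members called in sample against untransfected, 23 to 37 in mock against untransfected and 0 to 3 in sample against mock cells. For these fits the share of all genes called was not counted, so the ranges of member counts cannot be set against all genes. The median log2 fold change of members in mock cells was 0.42 in the authors' deposited table and 0.32 to 0.42 without each library. It was 0.27 under total counts and 0.31 under upper-quartile scaling. The median of all genes shifted as well, to -0.13 under total counts and -0.088 under upper-quartile scaling, from -0.0039 in the authors' deposited table. The difference between PSMB9 and PSMB6 ranged from -1.72 to -1.06 in sample and from -1.59 to -1.44 in mock cells without each library. No called member changed sign in any limma-voom fit. The members' median in sample against untransfected cells was 0.33 in the authors' deposited table and 0.22 under total counts. There the median of all genes was -0.0027 in the authors' deposited table and -0.12 under total counts. The difference between PSMB10 and PSMB7 in sample cells was -0.03, but 0.17 without sample library a. The median in sample against mock cells was -0.08 in the authors' deposited table and -0.16 to -0.05 without each library. The remaining medians and pair differences moved by less than the spread between replicates. The remaining counts with no library left out moved by less than 1.5 times, and the causes were not tested. Members with few reads, PSMB9, PSMC1 and PSMG4, and the low depth of sample library b limit what can be seen.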
